A study of Mus musculus with 12 samples.

Results

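The Wnt ligands, their Frizzled receptors and their secreted inhibitors of the Sfrp and Dkk families were followed across 4 groups of mouse fibroblast arrays. Members were chosen with earlier results of these data known, and by gene symbol, as Wnt, Fzd, Sfrp or Dkk with a number. This gave 36 of the 16475 probe sets tested, each of which stands for 1 gene. They comprise 19 Wnt ligands, 9 Frizzled receptors, 4 secreted Frizzled-related proteins and 4 Dickkopf proteins. NIH 3T3 is an established line of mouse embryo fibroblasts. The study compared 3T3-ind-IER2 #11 cells, 1 clone of NIH 3T3 with mouse Ier2 placed behind the RheoSwitch, with parental NIH 3T3 cells. RheoSwitch is a synthetic switch in which a small ligand, RSL, turns on the introduced gene, and Ier2 encodes an immediate-early nuclear protein. Both were treated for 24 h with either DMSO or RSL at 200 nM. There were 3 arrays for each of the 4 groups, 12 altogether, and the labels give all groups the same serum-containing medium with G418 and hygromycin. Because the inducible cells are 1 clone, features of that clone and of its construct cannot be told apart.

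Ier2, the introduced gene, was read first, since it bears on the labels. In inducible cells it lay at log2 9.07, 9.04 and 8.96 on the DMSO arrays and at 8.50, 8.48 and 8.66 on the arrays labelled RSL, so it read lower where the label calls for induction (log2 fold change -0.47, adjusted p = 4.64e-05 from limma). In parental cells it read 8.60, 8.61 and 8.53 under DMSO and 8.82, 8.74 and 8.67 on the arrays labelled RSL. It is not known if these probes detect the introduced transcript, so this does not settle the labels, and every direction below is that of the arrays labelled RSL against those labelled DMSO. Arrays of 1 group correlated at 0.9981 to 0.9992, and arrays of the different cell types at 0.9913 to 0.9932. Of 11 fibroblast markers, 10 lay above the median of every array and Lum below the first quartile of every array. Below the first quartile of every array were also 2 of 6 macrophage markers (Ptprc and Itgam), 3 of 6 epithelial ones (Epcam, Cdh1 and Krt8) and 3 of 5 endothelial ones (Pecam1, Cdh5 and Tek). The macrophage marker Csf1r lay above the median of all 12 arrays, at 7.23 to 7.58, and Cd68, Krt5, Krt14 and Kdr lay between the first quartile and the median. Under DMSO, Tie1 of endothelium (log2 difference 0.73) and Cd68 (0.40) were higher and Csf1r (-0.20) lower in the clone. Of the 6 epithelial markers 2 were called higher there and none lower. Of the 11 fibroblast markers 5 were called higher and 3 lower (72.7%), against 29.7% of all probe sets. Among probe sets with a mean above the median of all means, the share was 48.5%. The fibroblast list summed to log2 111.8 to 112.2 in parental and 112.5 to 113.5 in inducible cells under DMSO. The summed log2 level of the macrophage list was 37.84 to 38.04 in parental and 37.96 to 38.21 in inducible cells under DMSO. That of the epithelial list was 37.1 to 37.5 and 37.6 to 37.8, and that of the endothelial list 30.5 to 30.9 and 31.1 to 31.4. The part of these marker differences in the clone comparisons was not tested.

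Wnt proteins are secreted, lipid-bearing signals that bind Frizzled receptors on the cell surface. With the co-receptors Lrp5 and Lrp6 they stabilise β-catenin, which then activates genes together with TCF/LEF factors, while Wnt5a and related ligands are best known for signalling without β-catenin, through planar cell polarity and calcium. Sfrp proteins resemble the ligand-binding part of Frizzled and bind Wnt outside the cell, whereas Dkk1, Dkk2 and Dkk4 bind Lrp5 and Lrp6. Fibroblasts both send and receive these signals, and Wnt5a is a well-known product of connective tissue cells.

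Few of the 36 genes lay above the median of their arrays. Wnt5a, Fzd1, Fzd2, Fzd5, Fzd7, Dkk2 and Dkk3 lay above the array median on all 12 arrays, and Fzd6 did so on the 6 parental arrays only, which gives 8 genes above the median in at least 1 group. Dkk1, Dkk4, Sfrp1, Sfrp2, Wnt2, Wnt2b, Wnt3 and Wnt5b lay below the first quartile on every array and are said below to read near the floor. Of the ligands, Wnt5a was the only 1 of 19 above the median in any group, and none of the 4 Sfrp genes was. Probe sets differ in how well they bind, so these positions describe each probe set within its arrays and do not rank the genes.

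**Figure D1:**
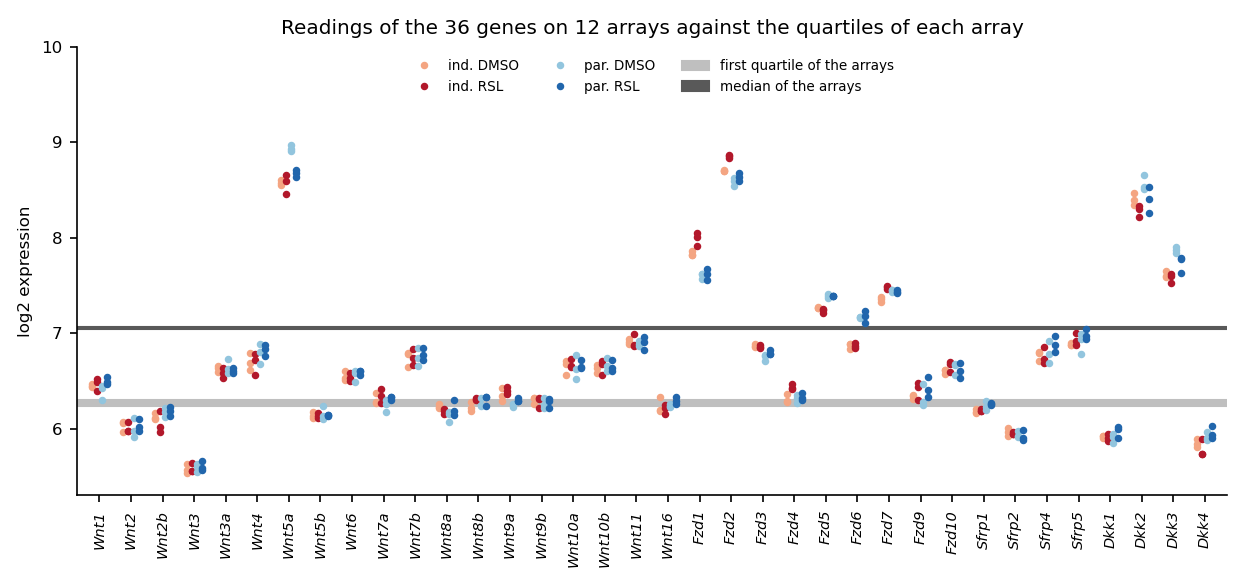
Log2 expression of the 36 genes (vertical axis) on each of the 12 arrays, one dot per array, coloured by group (ind., inducible cells; par., parental cells), with the range of the arrays' first quartiles and medians as grey bands. Wnt5a, Fzd1, Fzd2, Fzd5, Fzd7, Dkk2 and Dkk3 lie above the median band in all groups and Fzd6 in parental cells, while most Wnt and Sfrp genes lie near or below the first quartile.

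The first comparison asked what RSL changed in cells with the construct. In inducible cells, Fzd1, Fzd2 and Fzd7, which form 1 branch of the Frizzled family, rose on the arrays labelled RSL, by 9.34% to 11.2%. These 3 of 36 genes (8.33%) passed the test, against 2.54% of all 16475 probe sets, 1.32% higher and 1.21% lower. Among probe sets with a mean above the median of all means the share called was 4.46%, and 3 of the 7 members of that kind were called. None of the 19 ligands, 4 Sfrp genes or 4 Dkk genes passed. The median log2 fold change was 0.066 over the 9 Frizzled genes and -0.0041 over all 36, against 0.0027 over all probe sets. In such bulk RNA, a change in the share of cells that express a gene and a change in its RNA per cell cannot be told apart.

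Fzd2 encodes a receptor that is well known for binding Wnt5a. In inducible cells it read log2 8.70, 8.71 and 8.70 under DMSO and 8.87, 8.84 and 8.85 on the arrays labelled RSL. All 3 arrays labelled RSL lay above all 3 DMSO arrays, with a mean of 8.71 ± 0.0075 (SD, n = 3) against 8.86 ± 0.015 (SD, n = 3). The log2 fold change was 0.15 (standard error 0.033, 95% interval 0.080 to 0.22, adjusted p = 0.022 from limma), an increase of 11%.

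Fzd1, a receptor used by several ligands of the β-catenin pathway, read 7.82, 7.82 and 7.86 under DMSO and 8.0, 8.05 and 7.91 on the arrays labelled RSL. These groups did not overlap either, though the third array labelled RSL lay closest to the DMSO arrays. Its log2 fold change was 0.15 (standard error 0.039, 95% interval 0.071 to 0.24, adjusted p = 0.0483 from limma), or 11.2%.

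Fzd7, a Frizzled best known from embryonic and stem cells, read 7.38, 7.36 and 7.32 under DMSO and 7.50, 7.47 and 7.48 on the arrays labelled RSL. Again each array labelled RSL was above each DMSO array. The log2 fold change was 0.13 (standard error 0.030, 95% interval 0.065 to 0.19, adjusted p = 0.0296 from limma), or 9.34%.

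Fzd4, the receptor of the retinal vascular signal norrin, came closest to the threshold without passing it. It read 6.28, 6.29 and 6.36 under DMSO and 6.47, 6.42 and 6.42 on the arrays labelled RSL, groups that did not overlap (log2 fold change 0.13, adjusted p = 0.0828 from limma). With array weights it passed (0.14, adjusted p = 0.0134). Across all probe sets, 9.34% had groups that were apart and higher in this comparison and 8.75% apart and lower, and 5 and 3 of the 36 members did. The other Frizzled genes gave -0.0075 for Fzd3, -0.031 for Fzd5, 0.0057 for Fzd6, 0.066 for Fzd9 and 0.055 for Fzd10. Dkk2 had the lowest value of the 36, -0.12 (adjusted p = 0.422 from limma), with its groups apart.

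The 3 calls are close to the threshold. Leaving out any 1 of the 6 inducible arrays ended those of Fzd2 (adjusted p between 0.0503 and 0.0968 from limma) and Fzd7 (0.0593 to 0.124). For Fzd1 the same was true of 5 of the 6 arrays, with an adjusted p of up to 0.193, and without the third array labelled RSL it was 0.0194. The log2 fold changes kept their direction throughout, at 0.14 to 0.16 for Fzd2, 0.12 to 0.19 for Fzd1 and 0.11 to 0.14 for Fzd7, while the number of probe sets called fell from 418 to between 204 and 291. With 3 arrays against 3, an exact permutation test cannot give a two-sided p below 0.1, and it gave 0.1 for each of these genes.

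**Figure D2:**
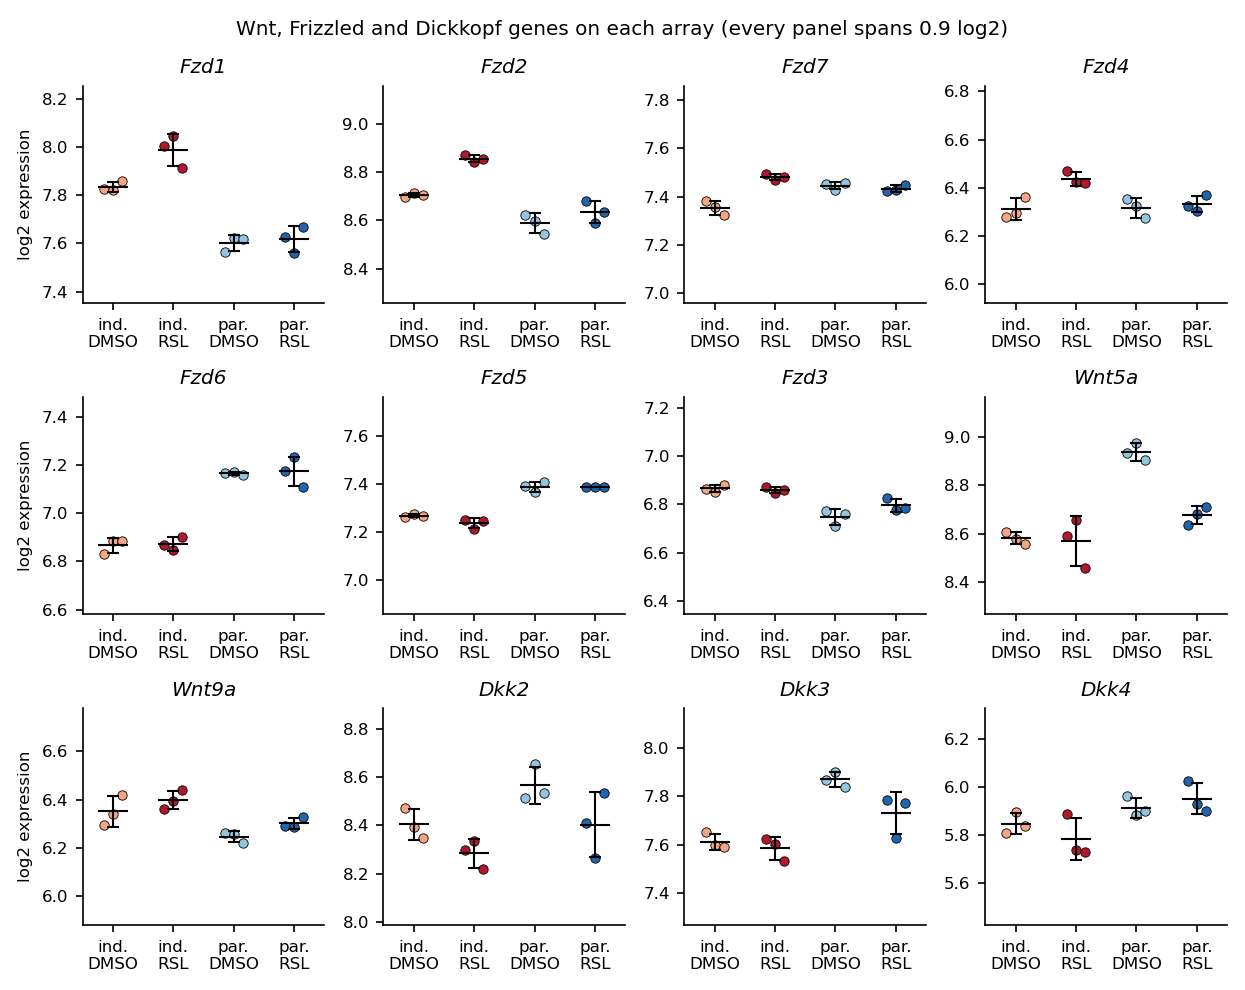
Log2 expression (vertical axis, the same span in every panel) of the 12 genes that were called in a comparison or lay above the array median in a group, by group, with each array as a point and the mean ± SD of 3 arrays in black. In inducible cells Fzd1, Fzd2 and Fzd7 are higher on the arrays labelled RSL, and Wnt5a is highest on the parental DMSO arrays.

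The start regions of Fzd1 and Fzd7 are shown because both genes were called higher for RSL in inducible cells. Between clone and parental cells under DMSO they were called in opposite directions (0.23 and -0.093). The 250 bases before each start site are from RefSeq, build GRCm38.p6, whose table held 25 of the 36 members and 2 of the 3 genes that rose. The Fzd7 region is chr1:59481897-59482146 on the plus strand and the Fzd1 region chr5:4758217-4758466 on the minus strand, and both lie before the gene. Both strands were searched for the GC box as GGGCGG and for the CCAAT box as spelled. The TATA box was searched as TATAAA, and the core of TCF/LEF sites, through which β-catenin acts, as CTTTGA and as CTTTGT. The AP-1 site was searched as TGANTCA and the site of EGR factors as GCGTGGGCG. Capitals mark every match.
Fzd7: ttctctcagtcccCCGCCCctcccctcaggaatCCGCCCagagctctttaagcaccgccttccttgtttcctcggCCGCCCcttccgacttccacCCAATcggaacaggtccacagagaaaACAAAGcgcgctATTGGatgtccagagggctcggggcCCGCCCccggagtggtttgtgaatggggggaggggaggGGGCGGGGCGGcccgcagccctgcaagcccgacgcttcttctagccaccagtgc
Fzd1: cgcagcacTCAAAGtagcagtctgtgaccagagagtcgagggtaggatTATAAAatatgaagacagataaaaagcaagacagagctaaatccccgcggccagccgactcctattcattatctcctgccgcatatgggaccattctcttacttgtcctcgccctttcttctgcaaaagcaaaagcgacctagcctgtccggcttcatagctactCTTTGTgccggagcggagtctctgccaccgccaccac

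The Fzd7 region held 6 GC boxes, of which the last 2 overlap, 2 CCAAT boxes and 1 CTTTGT, and 65.2% of its bases were G or C. The Fzd1 region held 1 TATAAA, 1 CTTTGA and 1 CTTTGT, with 51.2% G or C, against a median of 52.4% over the 32851 start regions of this length in the table. CTTTGT, the only pattern that both shared, was present in 16.5% of those regions, CTTTGA in 13.8%, TATAAA in 12.4%, GGGCGG in 32.7% and CCAAT in 33.8%. Neither region held TGANTCA (6.75% of regions) or GCGTGGGCG (0.536%). A match is a run of letters and was not tested as a binding site.

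The second comparison asked what RSL changed without the construct. In parental cells none of the 36 genes passed the test, against 0.0303% of all probe sets (5 of 16475). At an unadjusted p under 0.05 from limma, 1 member was higher and 3 were lower, or 4 of 36 against 9.71% of all probe sets. The one-way analysis named in the methods called 2 members before adjustment and none after it. The median log2 fold change of the 36 genes was 0.023, against 0.0070 over all probe sets. Groups did not overlap for 4 members higher and 2 lower, against 1173 and 1013 of all 16475 probe sets.

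Wnt5a was the member nearest to a call. It read 8.93, 8.98 and 8.91 on the parental DMSO arrays and 8.64, 8.68 and 8.71 on those labelled RSL. The groups were well apart, with means of 8.94 ± 0.037 (SD, n = 3) and 8.68 ± 0.038 (SD, n = 3), and the log2 fold change was -0.26 (standard error 0.044, 95% interval -0.36 to -0.17, adjusted p = 0.0536 from limma). In inducible cells it read 8.61, 8.58 and 8.56 under DMSO and 8.59, 8.66 and 8.46 on the arrays labelled RSL. There the groups overlapped and the log2 fold change was -0.012 (adjusted p = 0.974 from limma). The parental value passed when the lowest 40% of probe sets were left out (adjusted p = 0.0372), with an intensity trend in the variances (0.0303), with array weights (0.0127) and after a second quantile normalization (0.0314), all from limma. Leaving out 1 parental array gave -0.28 to -0.24, with an adjusted p between 0.0588 and 0.283.

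The Dkk genes with readings above the median also lay below their DMSO values in parental cells, without passing. Dkk3, a divergent Dickkopf relative whose link to Wnt signalling is weaker than that of the others, read 7.87, 7.90 and 7.84 under DMSO and 7.79, 7.63 and 7.77 on the arrays labelled RSL. Its groups did not overlap, and the log2 fold change was -0.14 (adjusted p = 0.366 from limma). Dkk2, an Lrp6-binding modulator that can inhibit or activate the pathway, read 8.51, 8.66 and 8.53 under DMSO and 8.41, 8.26 and 8.53 on the arrays labelled RSL. Its groups overlapped through the third array labelled RSL (log2 fold change -0.16, adjusted p = 0.411 from limma).

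The Frizzled genes that rose in inducible cells gave 0.016 for Fzd1, 0.047 for Fzd2 and -0.012 for Fzd7 in parental cells, with adjusted p-values from limma of 0.912, 0.656 and 0.913. Their arrays overlapped in each case. Fzd1 read 7.57, 7.62 and 7.62 under DMSO and 7.63, 7.56 and 7.67 on the arrays labelled RSL. Fzd2 read 8.62, 8.60 and 8.54 against 8.68, 8.59 and 8.63. Fzd7 read 7.45, 7.43 and 7.46 against 7.42, 7.43 and 7.45.

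**Figure D3:**
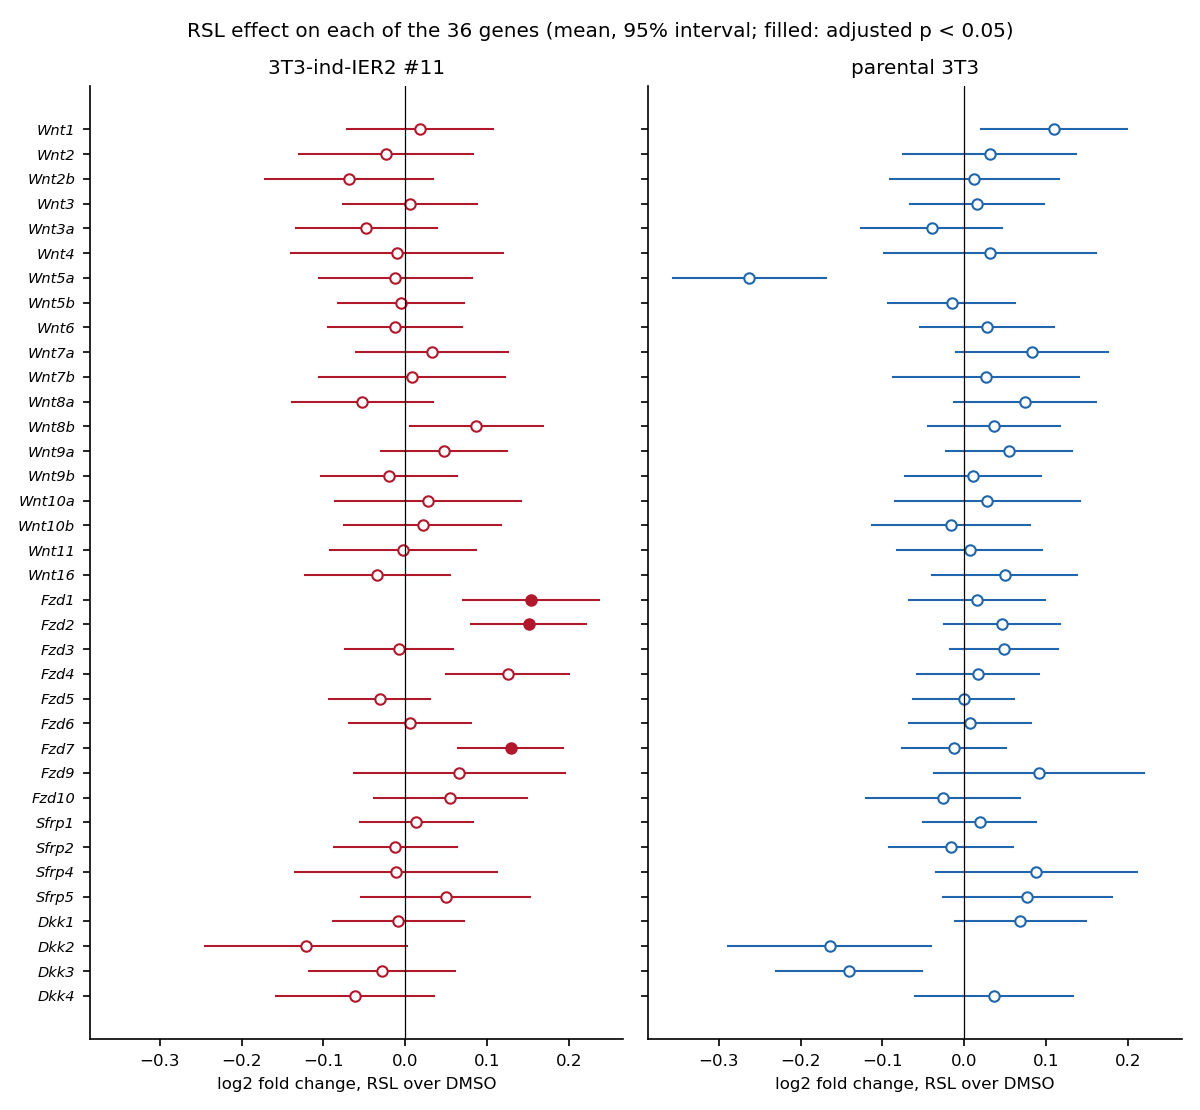
Log2 fold change of the arrays labelled RSL over the DMSO arrays (horizontal axis) for each of the 36 genes in inducible cells (left) and parental cells (right), with the 95% interval from limma as a line and filled points for an adjusted p under 0.05. Fzd1, Fzd2 and Fzd7 are filled on the left, none on the right, and Wnt5a lies farthest from 0 in parental cells at -0.26.

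The third comparison tested the difference itself, inducible minus parental RSL effect. None of the 36 genes passed, against 0.662% of all probe sets, and at an unadjusted p under 0.05 from limma 5 members were higher and 1 was lower, against 9.07% of all probe sets in either direction. The RSL effects on the 3 Frizzled genes were thus not shown to differ between the cell types. The differences were 0.14 for Fzd1 (95% interval 0.020 to 0.26, adjusted p = 0.432 from limma), 0.10 for Fzd2 (0.0043 to 0.20, adjusted p = 0.519) and 0.14 for Fzd7 (0.051 to 0.23, adjusted p = 0.206). Fzd4 gave 0.11 (adjusted p = 0.537). Wnt5a had the highest value, 0.25 (95% interval 0.12 to 0.38, adjusted p = 0.0957 from limma). Without the third inducible array labelled RSL, on which Wnt5a read 8.46, it was 0.31 with an adjusted p of 0.00935, and with array weights 0.26 with an adjusted p of 0.0184.

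The fourth comparison asked how the clone differed from the parental cells without RSL, on the arrays given DMSO for 24 h. Ier2 read higher in the clone there (log2 difference 0.45, adjusted p = 3.24e-06 from limma). On the arrays labelled RSL it read lower in the clone (-0.20, adjusted p = 0.00533 from limma). Under DMSO, 10 of the 36 genes (27.8%) passed, 4 higher and 6 lower in the clone, against 29.7% of all probe sets (15.2% higher and 14.5% lower), so the members were called about as often as other genes. Wnt5a, Fzd6 and Dkk3 were the most reduced and Fzd1 the most raised. All 7 members with a mean above the median of means were called, against 48.5% of all such probe sets, and 3 of the 29 members below it. Groups did not overlap for 5 members higher and 6 lower in the clone, against 3291 and 3328 of all 16475 probe sets.

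Among the ligands, Wnt5a read 8.61, 8.58 and 8.56 in the clone and 8.93, 8.98 and 8.91 in parental cells under DMSO. The groups were apart by more than the spread within either, and Wnt5a was lower in the clone by a log2 difference of -0.36 (standard error 0.044, adjusted p = 8.79e-06 from limma), or -22%. Wnt9a, a ligand with roles in joint and limb formation, read 6.29, 6.34 and 6.42 in the clone and 6.26, 6.26 and 6.22 in parental cells. These groups were also apart but close, and the call is a weak one (log2 difference 0.10, adjusted p = 0.0383 from limma), which ended on leaving out any 1 of the arrays except the first DMSO array of the clone (adjusted p between 0.0183 and 0.193). Its chromosomal neighbour Wnt3a, next to it on chromosome 11, did not pass, nor did the other neighbouring ligand pairs Wnt6 and Wnt10a on chromosome 1, Wnt3 and Wnt9b on chromosome 11, and Wnt1 and Wnt10b on chromosome 15.

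The receptors went in both directions, 3 of 9 higher, 3 lower and 3 not called. Fzd6, a Frizzled of planar cell polarity known for hair patterning, read 6.83, 6.88 and 6.89 in the clone and 7.17, 7.17 and 7.16 in parental cells under DMSO. It was below the array median on each clone array and above it on each parental one (log2 difference -0.30, standard error 0.035, adjusted p = 5.85e-06 from limma), or -18.7%. Fzd1 was higher in the clone by 0.23 (standard error 0.039, adjusted p = 0.000212 from limma), or 17.4%, and all its clone arrays lay above all parental ones. Fzd2 was higher by 0.12 (adjusted p = 0.0126). Fzd3, a planar polarity receptor of axon guidance, was higher by 0.12 (adjusted p = 0.00718), with 6.86, 6.85 and 6.88 in the clone against 6.77, 6.71 and 6.76. Fzd5, a receptor for Wnt7b and other ligands, was lower by -0.12 (adjusted p = 0.00451), with 7.26, 7.28 and 7.27 against 7.39, 7.37 and 7.41. Fzd7 was lower by -0.093 (adjusted p = 0.0262). Fzd4 gave -0.0041, with overlapping arrays.

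Of the inhibitors, Dkk3 read 7.65, 7.60 and 7.59 in the clone and 7.87, 7.90 and 7.84 in parental cells under DMSO. It was lower in the clone with no overlap (log2 difference -0.26, standard error 0.042, adjusted p = 0.000147 from limma). Dkk2 read 8.47, 8.40 and 8.35 against 8.51, 8.66 and 8.53 (log2 difference -0.16, adjusted p = 0.0474 from limma). Its groups were only just apart, and its call ended on leaving out 1 of 4 arrays, with an adjusted p of up to 0.194. None of the 4 Sfrp genes passed. The calls of Fzd7 (4 arrays, adjusted p of up to 0.104) and Fzd2 (the third parental DMSO array, adjusted p = 0.076) ended likewise, and without that parental array 6 of the 36 genes were called in all.

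The fifth comparison repeated this on the arrays labelled RSL, which the fourth did not use. Here 8 of the 36 genes (22.2%) passed, 4 higher and 4 lower in the clone, against 34.2% of all probe sets (17.5% higher and 16.8% lower). Of the 7 members with a mean above the median of means 4 were called, against 52.7% of such probe sets. Groups did not overlap for 6 members higher and 6 lower in the clone, against 3492 and 3835 of all 16475 probe sets. Fzd1, Fzd2, Wnt9a, Fzd5, Fzd6 and Dkk3 were called in both comparisons and in the same direction, which is 60% of the members called under DMSO and 75% of those called under RSL. Over all probe sets these shares were 79% and 68.5%. The 2 comparisons used the same cells and 1 shared estimate of each gene's spread, so their common calls are not independent.

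Fzd1 read 8.0, 8.05 and 7.91 in the clone and 7.63, 7.56 and 7.67 in parental cells on the arrays labelled RSL. All clone arrays lay above all parental ones, and the log2 difference was 0.37 (standard error 0.039, adjusted p = 1.52e-06 from limma), or 29.2%, the largest rise among the members in any of the 5 comparisons. Fzd2 was higher by 0.22 (standard error 0.033, adjusted p = 6.14e-05). Fzd6 read 6.87, 6.85 and 6.90 against 7.18, 7.23 and 7.11. Its log2 difference, -0.30 (adjusted p = 4.77e-06 from limma), was close to that under DMSO. Fzd5 was lower by -0.15 (adjusted p = 0.000687), with 7.25, 7.21 and 7.25 against 7.39 on each of the parental arrays. Fzd4 was higher by 0.10 (adjusted p = 0.0308), and with 1 of 4 arrays left out this call ended, at an adjusted p of up to 0.122.

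Wnt5a, Dkk2, Fzd7 and Fzd3, which were called under DMSO, were not called on the arrays labelled RSL, and the third comparison did not show that any of these differences changed. Wnt5a gave -0.11 (adjusted p = 0.0702 from limma), with overlapping arrays, Dkk2 gave -0.12 (adjusted p = 0.135) and Fzd7 gave 0.048 (adjusted p = 0.247). Wnt5a passed without the second inducible array labelled RSL (adjusted p = 0.015), with the lowest 40% of probe sets left out (0.0495) and after a second quantile normalization (0.0243). Dkk2 passed without the second parental array labelled RSL (0.016) and after that normalization (0.0494). Fzd3 gave 0.063 (adjusted p = 0.134). Wnt9a was higher by 0.097 (adjusted p = 0.0488), a call that ended without any 1 of the arrays except the first inducible one (adjusted p between 0.0473 and 0.153). Dkk3 was lower by -0.15 (adjusted p = 0.0126), and without 1 of 3 arrays its adjusted p was up to 0.0669. Dkk4, a Dickkopf inhibitor of Lrp6, was lower by -0.17 (adjusted p = 0.00893), but it read near the floor, at 5.89, 5.74 and 5.73 against 6.02, 5.93 and 5.90, and without the first parental array labelled RSL, where 4 of the 36 genes were called in all, its adjusted p was 0.055.

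**Figure D4:**
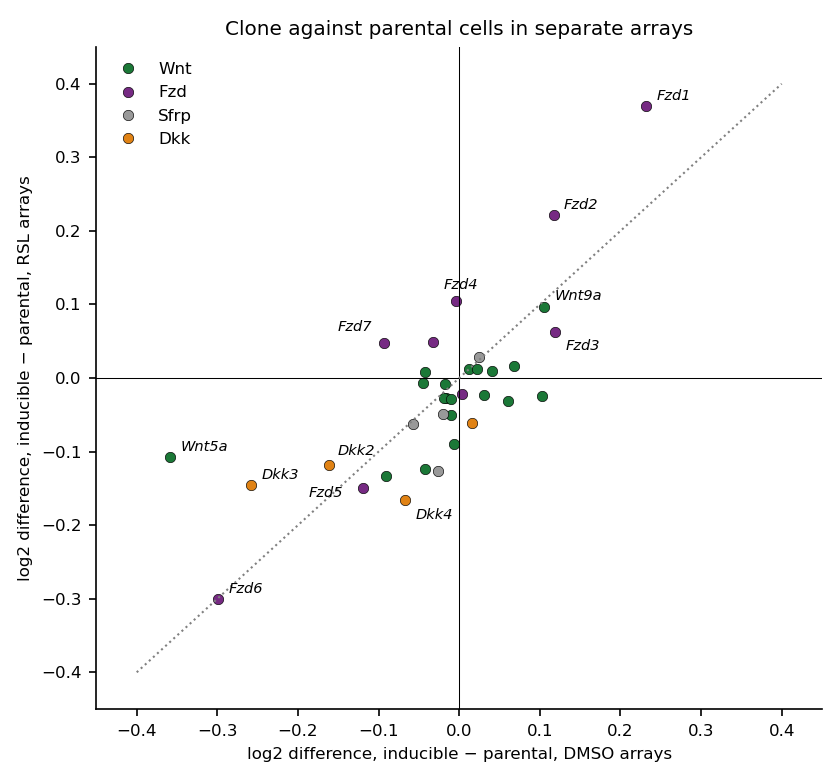
Log2 difference of inducible minus parental cells for each of the 36 genes on the DMSO arrays (horizontal axis) and on the arrays labelled RSL (vertical axis), which are separate arrays, coloured by family, with the dotted line marking equal values. Fzd1 is highest on both axes, at 0.23 and 0.37, Wnt5a is lowest on the DMSO axis, at -0.36 against -0.11 under RSL, and Fzd6 lies at -0.30 on both.

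The other 24 genes were not called in any comparison and lay below the median of every array. They comprise 17 ligands, Fzd9, Fzd10, the 4 Sfrp genes and Dkk1, the best-known Lrp6 inhibitor. Near the floor were Dkk1, Sfrp1, Sfrp2, Wnt2, Wnt2b, Wnt3 and Wnt5b, with readings between 5.53 and 6.29 over all 12 arrays. Wnt1, Wnt3a, Wnt4, Wnt6, Wnt7b, Wnt10a, Wnt10b, Wnt11, Fzd9, Fzd10, Sfrp4 and Sfrp5 lay between the first quartile and the median of every array. Wnt8a read below the first quartile on 11 of the 12 arrays, Wnt16 on 8, Wnt8b on 4, Wnt9b on 3 and Wnt7a on 2. These 12 and 5 genes read between 6.07 and 7.05. The span of a gene over the 12 arrays was 0.11 to 0.33 in these 24 and reached 0.52 for Wnt5a and 0.49 for Fzd1. RSL effects of the 24 genes lay between -0.069 for Wnt2b and 0.087 for Wnt8b in inducible cells and between -0.039 for Wnt3a and 0.11 for Wnt1 in parental cells. Clone differences lay between -0.091 for Wnt4 and 0.10 for Wnt8a under DMSO and between -0.13 for Wnt4 and 0.049 for Fzd10 on the arrays labelled RSL. At an unadjusted p under 0.05 from limma, 1 of the 24 passed under DMSO and 4 on the arrays labelled RSL. Of all 16475 probe sets, 3086 were higher and 3102 lower at that threshold under DMSO, and 3441 and 3601 on the arrays labelled RSL. Since these 24 genes were grouped for having no call, few of them could pass. The median SD within a group of 3 arrays, over the 36 genes, was 0.033 to 0.051 log2.

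The rest of the pathway was described through 4 gene lists. In inducible cells given RSL, none of 33 other receptors, modulators and secretion factors, 39 cytoplasmic and nuclear β-catenin components or 26 genes of planar polarity and other β-catenin-independent signalling was called, and 3 of 22 widely used β-catenin target genes were (13.6%, against 2.54% of all probe sets). Met, the receptor of hepatocyte growth factor, read 7.84, 7.72 and 7.74 under DMSO and 8.02, 7.94 and 7.94 on the arrays labelled RSL (log2 fold change 0.20, adjusted p = 0.028 from limma). The groups were apart, but without 1 of 4 arrays the call ended, at an adjusted p of up to 0.148. Cd44, a hyaluronan receptor, fell by 0.25 (adjusted p = 0.000371), from 11.13, 11.12 and 11.05 to 10.86, 10.88 and 10.81. Fosl1, a Fos-related subunit of AP-1, fell by 0.27 (adjusted p = 0.000717). All 3 are targets of several other pathways. They lay above the median of every array, and among probe sets with a mean above the median of all means 4.46% were called. Axin2 and Lef1, also on the target list, gave -0.0048 and 0.0018. Axin2 read 6.32 to 6.45, below the median of every array, and Lef1 read near the floor. Whether β-catenin had a part in the 3 calls was not tested. In parental cells no gene of the lists was called, and for the difference of the RSL effects only Fosl1 was. Without passing, Met read 7.94, 7.94 and 7.95 on parental DMSO arrays and 8.14, 8.14 and 7.96 on those labelled RSL. Cd44 read 10.98, 11.01 and 10.99 against 10.89, 10.91 and 10.90. Both went the same way as in inducible cells with no overlap, whereas Fosl1 went the other way (means 10.63 and 10.69). With array weights 1 receptor or modulator gene was called for RSL in inducible cells, and for the difference 2 of these genes and 2 targets. Without the third inducible array labelled RSL 2 receptor or modulator genes were called for the difference, and without the third inducible DMSO array 1 polarity gene was called for RSL.

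Between clone and parental cells every list had calls in both directions. Of the 33 receptors, modulators and secretion factors, 5 were higher and 2 lower under DMSO (21.2%). Apcdd1, a membrane-bound Wnt inhibitor, was higher by 0.61, Reck, a co-receptor for Wnt7, by 0.33, the co-receptor Lrp6 by 0.19, Trabd2b, a Wnt-cleaving protease, by 0.17 and Kremen1, a Dkk receptor, by 0.15. Wls, the carrier that brings Wnt proteins to the surface, was lower by -0.28, from 9.28, 9.35 and 9.31 in parental to 9.09, 9.01 and 8.98 in inducible cells. On the arrays labelled RSL, 5 were higher and 3 lower (24.2%), with Reck at 0.52, Apcdd1 at 0.46, Lrp6 at 0.21, Kremen1 at 0.19, Ptk7, a polarity co-receptor, at -0.19 and Lrp5 at -0.17. Wls gave -0.084 there (adjusted p = 0.167 from limma). Ptk7 was also lower under DMSO, by -0.14 (adjusted p = 0.0218 from limma), with an adjusted p of up to 0.121 without 1 array. Of this list, 14 genes read near the floor on all arrays, among them all 4 R-spondins.

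Of the 39 cytoplasmic and nuclear components, 9 were higher and 6 lower under DMSO (38.5%), and 10 and 9 on the arrays labelled RSL (48.7%). Senp2, a SUMO protease, was higher by 0.36 and 0.33, Csnk1d, a casein kinase, by 0.20 and 0.20, and Gsk3b, a kinase of the β-catenin destruction complex, by 0.18 and 0.22. The co-activator Crebbp was higher by 0.28 and 0.21, and the co-repressor Tle4 by 0.092 and 0.15. The call of Tle4 under DMSO (adjusted p = 0.0429 from limma) was weak, with an adjusted p of up to 0.164 without 1 array. Chd8, a chromatin remodeller, was lower by -0.16 and -0.18, and Amer1, an APC-binding protein, by -0.18 and -0.18. β-catenin itself, Ctnnb1, was not called in either.

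Of the 22 targets, 5 were higher and 4 lower under DMSO (40.9%), and 4 and 7 on the arrays labelled RSL (50%). Ccn4, a matricellular protein first described as Wnt-induced, was higher by 0.45 and 0.57, Ccnd2, cyclin D2, by 0.25 and 0.26, and Bambi, a pseudoreceptor of TGF-β, by 0.30 and 0.17. Sox9, a chondrocyte transcription factor, was lower by -0.21 and -0.22, and Ccnd1, cyclin D1, by -0.15 and -0.21. Fosl1 was higher by 0.23 under DMSO and lower by -0.11 on the arrays labelled RSL, where a replicate block ended its call (adjusted p = 0.0554), and Lef1 was lower by -0.20 on the arrays labelled RSL. Of the 26 polarity and β-catenin-independent genes, 5 were higher and 1 lower under DMSO (23.1%), and 4 and 3 on the arrays labelled RSL (26.9%). The polarity genes Vangl2 and Prickle1 were higher by 0.11 and 0.13 under DMSO and by 0.24 and 0.23 on the arrays labelled RSL. Their DMSO calls ended without 1 array for 4 of 6 arrays (adjusted p of up to 0.0628 from limma) and 3 of 6 (up to 0.0869). The calcium-dependent kinase Camk2d was lower by -0.31 and -0.23, and Mapk9, a JNK kinase, was higher by 0.12 and 0.12. Under DMSO Daam1, a formin of the polarity arm, was higher by 0.14 and the GTPase Rac1 by 0.093, and on the arrays labelled RSL Intu, a polarity effector, was higher by 0.092 and Daam2 lower by -0.11. The calls of Intu and Daam2 ended with a replicate block (adjusted p = 0.0525 and 0.0583 from limma), and without 1 array for 5 of 6 arrays (adjusted p of up to 0.163) and 3 of 6 (up to 0.153). That of Rac1 under DMSO ended without 1 array for 4 of 6 arrays (adjusted p of up to 0.076 from limma). On the arrays labelled RSL the 11 targets called became 7 without the first inducible or the first parental array, and the 7 polarity genes became 4 with the block and without the first or the second parental array. The shares called in the lists lay on both sides of the 29.7% and 34.2% of all probe sets.

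**Figure D5:**
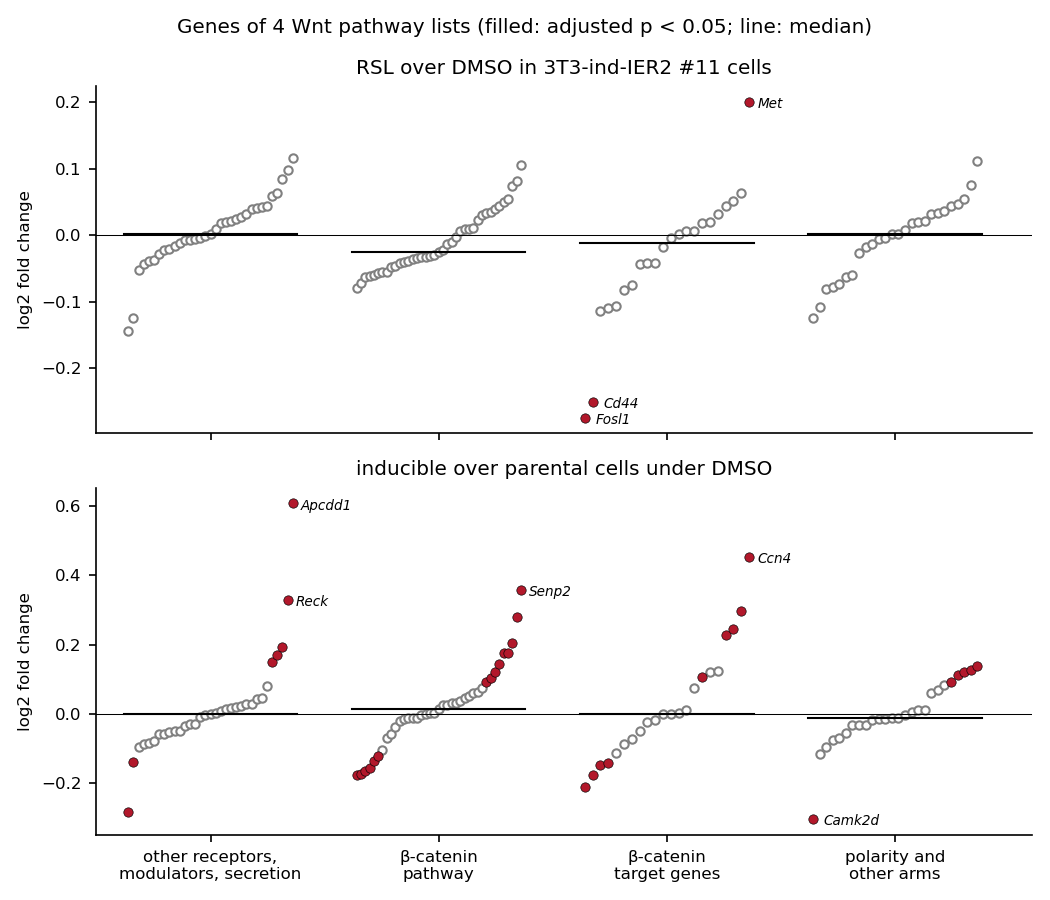
Log2 fold change (vertical axis) of every gene in 4 Wnt pathway lists, sorted within each list, for RSL over DMSO in inducible cells (top) and inducible over parental cells under DMSO (bottom), with filled points for an adjusted p under 0.05 from limma and a line at each list's median. Met, Cd44 and Fosl1 are the only filled points at the top, and Apcdd1, at 0.61, is the highest at the bottom.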

How the data were processed

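The authors deposited 1 table of log2 values from Affymetrix Mm430_2.0 arrays, made with an Entrez-based Custom CDF (version 10), RMA background correction and then normalization to common quantiles, and worked in SAS JMP10 Genomics (version 4). Log base 2 was inferred from how far the values reach. How probes were summarised per gene was not stated. RNA was extracted with RNAPure peqGOLD per the methods and with Trizol per the labels. Of 16539 rows, 64 hybridization controls were left out, and 15780 of the 16475 probe sets have 1 gene symbol. All 12 arrays entered 1 linear model of the 4 groups in limma 3.58.1 (R 4.3.3), with 8 residual degrees of freedom, 5 contrasts and Benjamini-Hochberg adjustment over all probe sets. Calls needed an adjusted p under 0.05, and all adjusted p-values are limma's unless named otherwise. Scripts were tested on simulated data. Arrays give no counts, so their number limits the precision. Replicates are called biological in the labels, but separate cultures are not mentioned, and the p-values therefore reflect only how these arrays scatter, which may be technical.

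Members called in any comparison, or above the array median on all 3 arrays of a group, were given per array, and of each pathway list up to 6 called genes per comparison by smallest p. Axin2, Ctnnb1, the R-spondins, and the uncalled values of Lef1 and Wls were named after their values were seen. So were the calls of Crebbp under RSL and of Tle4 and Ptk7 under DMSO. Members and lists were chosen with earlier results of these data known. Genes of the lists were measured for 33 of 34 receptors and modulators, 39 of 41 cytoplasmic and nuclear components, 22 of 23 targets and 26 of 31 polarity genes. Alternatives were a replicate block, leaving out the lowest 40% of probe sets, an intensity trend, array weights, median subtraction, a second quantile normalization, the compared arrays alone, the methods' one-way analysis with adjustment and, chosen after seeing the data, at nominal p, and leaving out each array in turn.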

Additional observations from a re-analysis of the deposited data

Results flagged for a closer look

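For Fosl1, the AP-1 subunit among the β-catenin targets, the RSL effect differed between the cell types by a test of the difference itself, -0.33 on the log2 scale (95% interval -0.45 to -0.22, adjusted p = 0.00649 from limma). In inducible cells it read 10.90, 10.87 and 10.78 under DMSO and 10.55, 10.54 and 10.64 on the arrays labelled RSL, and in parental cells 10.61, 10.65 and 10.61 against 10.72, 10.65 and 10.68. Leaving out each array in turn gave differences of -0.37 to -0.31, with an adjusted p between 0.00363 and 0.0288.

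Ier2, the introduced gene, also differed in its RSL effect between the cell types, by -0.64 (95% interval -0.79 to -0.49, adjusted p = 0.000262 from limma), since it read lower on the inducible arrays labelled RSL and higher, without passing, on the parental ones (0.17, adjusted p = 0.366).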

How the results depend on the processing

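The 3 members called for RSL in inducible cells became 1 with a replicate block (Fzd2; adjusted p = 0.0976 for Fzd1 and 0.0601 for Fzd7), 1 on the compared arrays alone, 0 by the methods' one-way analysis after adjustment, 5 at its nominal p and 0 to 1 without 1 array. The 0 in parental cells became 1, Wnt5a, with the low filter, the intensity trend, array weights or the second quantile normalization, 2 at nominal p, and stayed 0 without any 1 array. The 0 for the difference became 1 with array weights, again Wnt5a, and was 0 to 1 without 1 array. The clone comparisons gave 6 to 10 members under DMSO (main 10) and 4 to 9 under RSL (main 8) without 1 array, and 5 under RSL by the adjusted one-way analysis. Replicate numbers showed no steady pairing of the arrays: correlations of same-numbered deviations ran from -0.296 to 0.219. Differently numbered arrays were not compared, so this does not settle whether replicates were paired. The block also ended the calls of Dkk2 under DMSO (adjusted p = 0.0743) and Wnt9a under RSL (0.0542). Among the calls of list genes named above, those of Tle4 and Ptk7 under DMSO aside, it ended those of Fosl1, Daam2 and Intu under RSL. Subtracting the array median ended those of Fzd1 for RSL (adjusted p = 0.07) and Dkk2 under DMSO (0.0538).

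Values near 0, called in no setting, changed sign. For RSL in inducible cells array weights gave -0.0032 for Fzd6 and 0.0049 for Wnt5a, and leaving out 1 array -0.013 to 0.018 and -0.057 to 0.044, with -0.014 to 0.00014 for Fzd3. In parental cells Fzd6 was at -0.0013 with median subtraction and Fzd4 at -0.0085 with quantile normalization, and without 1 array Fzd1 ran from -0.0097 to 0.045, Fzd4 from -0.0048 to 0.035, Fzd5 from -0.011 to 0.0085 and Fzd6 from -0.023 to 0.039. For the difference Fzd6 was at 0.0019 and 0.00043 in these settings and Wnt9a at 0.011 with quantile normalization, with -0.033 to 0.029 for Fzd6, -0.036 to 0.027 for Wnt9a and -0.026 to 0.11 for Dkk2 without 1 array. For the clone under DMSO Fzd4 was at 0.010 with array weights, 0.0030 with quantile normalization and -0.030 to 0.014 without 1 array.

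Over all probe sets, the 418 calls for RSL in inducible cells became 736 with array weights, 1 by the adjusted and 1913 by the nominal one-way analysis. The 5 in parental cells became 8, 10, 106 and 8 with the filter, trend, weights and quantile settings, 2 on the compared arrays, 0 and 1226 by the one-way analysis and 1 to 7 without 1 array. The 109 for the difference became 375 with weights and 56 to 144 without 1 array, and the 5638 for the clone under RSL 3480 by the adjusted one-way analysis. Without 1 array the clone counts of the lists, in the order given above, were 6 to 8, 12 to 14, 8 to 9 and 4 to 5 under DMSO and 7 to 9, 14 to 17, 7 to 11 and 4 to 7 under RSL. For the difference 2 targets were called with array weights and 2 after quantile normalization, and the receptor list had 0 to 2 without 1 array. The adjusted one-way analysis ended the calls of Met, Cd44 and Fosl1 for RSL. Of the members given per array, the low filter removed Fzd4, Wnt9a and Dkk4, and it removed some list genes, so these have no value there. The cause of these changes was not tested.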
